A study of Mus musculus with 16 samples.

Results

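The Slc25a family encodes the mitochondrial carriers, most of them transporters that move nucleotides, phosphate, amino acids, keto acids, metals and cofactors across the inner mitochondrial membrane. Members were taken as the gene symbols that start with Slc25a and a number and that reached a count of at least 10 in at least 4 of 16 libraries. Of 43 such symbols in a table of 16934 genes, 38 met this rule and all 38 also passed the filter on low counts, which left 13139 genes for testing. Slc25a34 and Slc25a36 lay just inside the rule, with that count in 4 libraries each, and Slc25a18 just outside it, with 3. Slc25a21 and Slc25a43 reached the count in 2 libraries, and Slc25a41 and Slc25a54 in 1.

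The RNA was from cultures of primary neurons, taken from the cortex of C57BL/6 mouse embryos and kept in vitro for 14 days. Neurons were given Atto488-labelled α-synuclein fibrils at 0.1 µM for 16 h, or left untreated, and were then kept alone or with added microglia for 6 h. The 4 groups of 4 libraries are named here untreated neurons alone, loaded neurons alone, untreated co-cultures and loaded co-cultures. Whether and how microglia were removed from a co-culture before RNA was extracted is not in the labels. Nor do they tie the libraries of a group to separate cultures or animals, so every p-value measures only how far these libraries differed, which could be technical.

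Most of the carriers are small membrane proteins built from repeated transmembrane modules, imported into the inner membrane after synthesis in the cytosol. In neurons, adenine nucleotide carriers return ATP to the cytosol, the phosphate carrier feeds ATP synthase, and the aspartate/glutamate carrier together with the oxoglutarate/malate carrier runs the malate-aspartate shuttle, which brings the reducing power of cytosolic NADH into mitochondria. Slc25a12, also called aralar, is the aspartate/glutamate carrier that predominates in neurons and is activated by calcium.

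Upstream sequence is shown for Slc25a12, the 1 member that passed the test, and for Slc25a4, the member of highest level. Slc25a12 lies on chromosome 2, from 71271063 to 71367749 on the minus strand (GRCm38), and Slc25a4 on chromosome 8, from 46206797 to 46211284 on the minus strand. The windows hold 250 bases before and 50 bases after the gene start in RefSeq (GRCm38.p6), at chr2:71367706-71368005 and chr8:46211013-46211312, and are printed 5′ to 3′ along the gene's strand, with capitals marking matches to any of 6 motifs searched on both strands.
Slc25a12: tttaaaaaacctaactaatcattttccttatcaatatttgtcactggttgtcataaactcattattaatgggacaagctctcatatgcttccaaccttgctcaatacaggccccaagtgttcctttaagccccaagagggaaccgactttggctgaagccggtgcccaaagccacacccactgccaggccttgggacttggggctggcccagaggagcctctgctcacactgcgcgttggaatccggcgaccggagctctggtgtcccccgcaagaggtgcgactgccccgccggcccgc
Slc25a4: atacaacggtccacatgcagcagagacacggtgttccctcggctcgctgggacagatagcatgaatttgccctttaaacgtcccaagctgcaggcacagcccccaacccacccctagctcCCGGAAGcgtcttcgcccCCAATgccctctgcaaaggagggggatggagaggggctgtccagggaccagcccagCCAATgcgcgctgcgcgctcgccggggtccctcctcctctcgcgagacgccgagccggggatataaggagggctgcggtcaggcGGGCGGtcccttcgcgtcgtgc
The Slc25a12 window held none of the 6 motifs. In the Slc25a4 window the capitals mark 1 GC box, 2 CCAAT boxes and 1 ETS motif. Windows were found for 29 of the 38 members. The GC box, GGGCGG, lay in at least 1 window of 26 of these 29 members (89.7%) and in 38.2% of all genes of the RefSeq table. The 3 members without it were Slc25a12, Slc25a13 and Slc25a47. The CCAAT box, CCAAT, was found for 17 members (58.6%) against 41.1% of all genes, and the ETS motif, CCGGAAG, for 6 (20.7%) against 9.93%. The E box, CACGTG, was found for 6 members (20.7%) against 8.09% of genes, and the cyclic AMP response element, TGACGTCA, for 2 (6.9%) against 2.03%. The NRF1 motif, CGCATGCG, was found for 0 of the 29 and for 2.07% of genes. None of the 6 motifs contains another. The median GC content of the member windows was 59.8%, against 52.7% for all windows.

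Total counts ran from 6511516 to 13986374 per library, 10817 to 13079 genes were detected, and the ribosomal RNA gene Rn45s took 9.35% to 26.8% of counts. The spread was wide, with a biological coefficient of variation of 1.17 over all genes tested. Markers of the cells in the dish differed between the groups. The 10 neuronal markers, all in the table, summed to 2833 to 6800 CPM (counts scaled to library size) in untreated neurons alone, 1348 to 6910 in loaded neurons alone, 1159 to 2846 in untreated co-cultures and 1448 to 2105 in loaded co-cultures. The 8 excitatory markers averaged 7197, 3864, 1012 and 513 CPM in the same order. The 11 markers of the oligodendrocyte lineage took the opposite order, 1087 to 3012 CPM over the 8 libraries of neurons alone and 3958 to 9577 over the 8 co-cultures. The 4 genes of dividing cells averaged 183, 294, 949 and 573 CPM, and the 9 astrocyte markers 3692, 5543, 2964 and 2218 CPM. The 11 microglial markers summed to 4.92 to 28.4 CPM in neurons alone, to 437 and 1080 CPM in replicate 1 of the untreated and of the loaded co-cultures, and to 8.60 to 52.8 CPM in the other 6 co-cultures. Of the defining microglial markers, P2ry12 and Tmem119 were at 0 in all 16 libraries. In such bulk libraries, fewer cells of a type and less RNA per cell cannot be told apart, and the part these marker levels play in any result below was not tested.

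The 38 members spanned a wide range of levels, in CPM of 3′-end reads, a scale that does not depend on gene length. Slc25a4, an adenine nucleotide carrier, averaged 890 CPM over the 16 libraries, Slc25a3, the phosphate carrier, 647 CPM, and Slc25a5, a further adenine nucleotide carrier, 311 CPM. These 3 genes took 54.3% to 69.4% of all member counts in a library. Another 20 members averaged 10 CPM or more, and 15 averaged less. Of 608 values (38 members in 16 libraries), 107 were 0 (17.6%), spread almost evenly over the groups with 26 to 28 zeros in each. In 69 of these zeros another library of the same group had a count of at least 50, so a single value of a low member says little. The median coefficient of variation within groups was 30.6% for the 12 members at 40 CPM or more, 61.2% for the 11 between 10 and 40 CPM, and 128% for the 15 below.

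**Figure D1:**
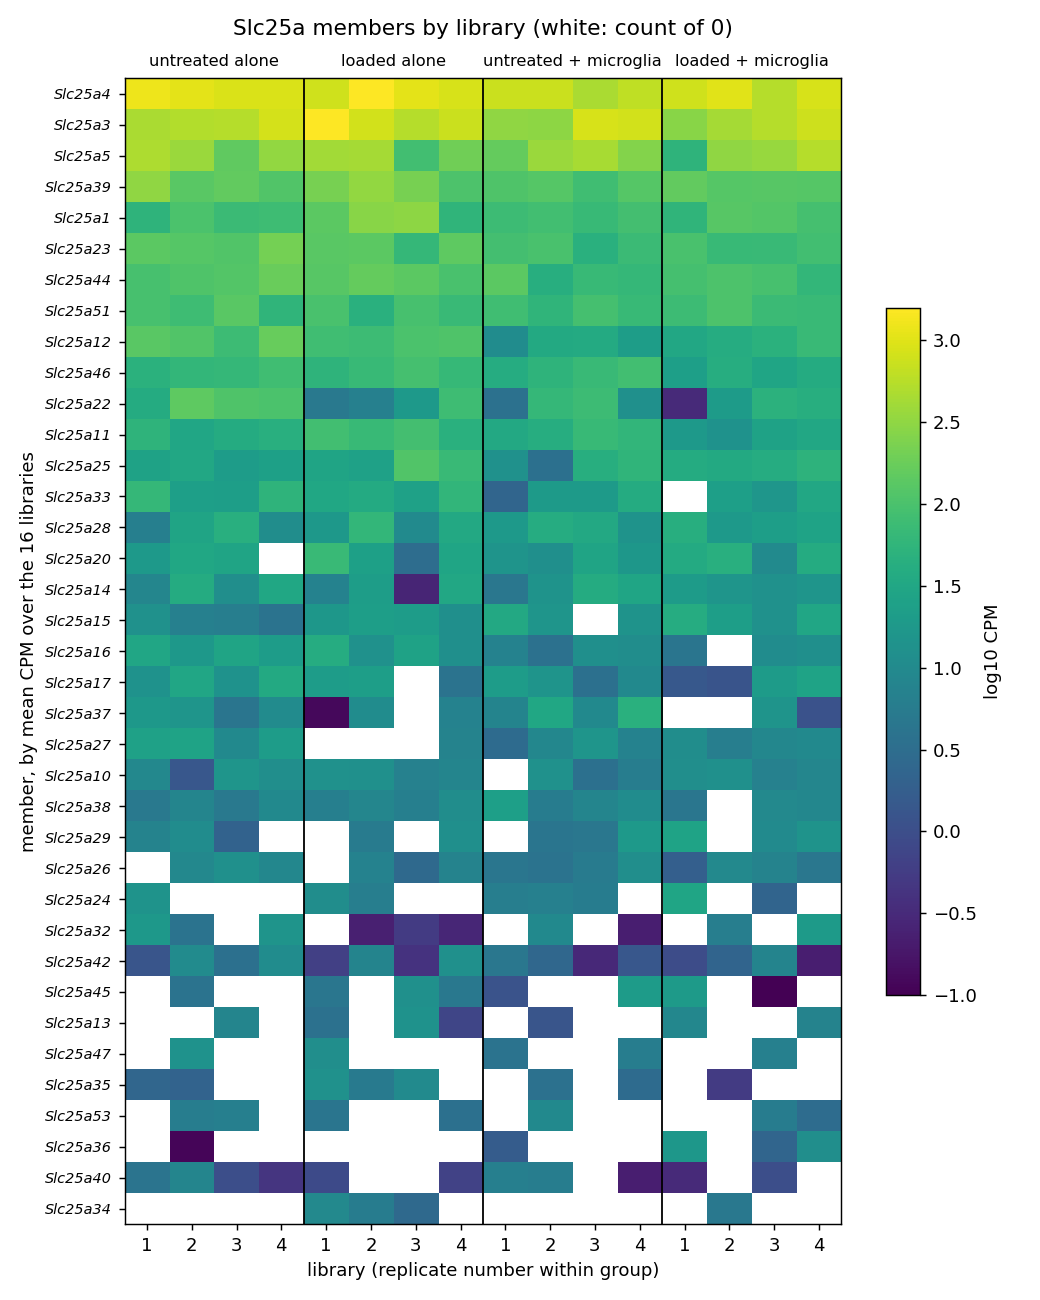
Each row is 1 of 37 members, ordered by mean level, and each column 1 of the 16 libraries, grouped as labelled on top. Colour gives log10 CPM and white marks a count of 0. The upper rows are filled in every library, and the white cells gather in the lower rows of all 4 groups.

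The summed level of the members was 3231 ± 274 CPM (SD, n = 4) in untreated neurons alone and 3607 ± 691 CPM in loaded neurons alone. It was 2388 ± 305 CPM in untreated co-cultures and 2536 ± 487 CPM in loaded co-cultures. The ranges for untreated neurons with and without microglia did not overlap (2021 to 2649 against 2853 to 3450 CPM), while those for loaded neurons did (2007 to 3152 against 2949 to 4376 CPM). These sums rest on TMM factors, a scaling factor for each library. The factor was 1.11 in replicate 3 of the untreated co-cultures (2630 CPM) and 0.989 in replicate 3 of untreated neurons alone (2853 CPM). Without the factors both libraries change order, so the untreated ranges overlap as well.

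Microglia were compared with no microglia first. In untreated neurons, 1 of the 38 members passed edgeR's quasi-likelihood test at a Benjamini-Hochberg adjusted p under 0.05, against 0.122% of all 13139 genes. At an unadjusted p under 0.05 there were 3 members, against 9.1% of genes. In loaded neurons 0 members passed edgeR's test (0.114% of genes), with 6 at an unadjusted p under 0.05 (11.7% of genes). In the average over both fibril states 1 member passed (2.19% of genes), with 7 at an unadjusted p under 0.05 (16.5% of genes). The member that passed was Slc25a12 both times. The limma-voom test called 1, 0 and 1 members in the same 3 comparisons, against 0.578%, 0.312% and 4.96% of genes. DESeq2 called 1, 1 and 2, against 2.27%, 3.78% and 8.4% of genes, adding Slc25a11 in loaded neurons and Slc25a23 in the average.

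Members lay lower with microglia more often than not. In untreated neurons 25 of 38 were lower and 12 higher, with Slc25a34 at 0 in both groups, and the median log2 change was -0.18, against -0.02 over all genes. In loaded neurons 24 were lower (median -0.21, against -0.03), and in the average 26 were lower (median -0.41, against -0.03). Of all genes, 50.8%, 51.2% and 51.4% were lower. These counts depend on the scaling. With library totals in place of TMM factors the median of all genes moved to 0.19, 0.18 and 0.18, the member medians to -0.04, -0.08 and -0.19, and the members lower to 19, 21 and 20 of 38. The calls over all genes moved from 9 higher and 7 lower to 45 and 5 in untreated neurons, from 9 and 6 to 26 and 5 in loaded neurons, and from 160 and 128 to 339 and 83 in the average.

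Fibrils moved no member past the test. In neurons alone edgeR called 0 members (0% of genes), with 2 at an unadjusted p under 0.05 (6.92% of genes), while limma-voom called 0 (0% of genes) and DESeq2 0 (1.33% of genes). In co-culture edgeR called 0 (0% of genes), with 3 at an unadjusted p under 0.05 (3.68% of genes), and limma-voom (0% of genes) and DESeq2 (0.998% of genes) called 0 as well. The average of both fibril comparisons gave 0 with edgeR, 0 with limma-voom and 0 with DESeq2 (0%, 0% and 1.97% of genes), and 2 at an unadjusted p under 0.05 with edgeR (6.62% of genes). The interaction, the difference between both microglia effects, gave 0 with each tool (0%, 0% and 1.44% of genes) and 2 at an unadjusted p under 0.05 with edgeR (4.03% of genes). With fibrils, 18 members were higher and 20 lower in neurons alone, and 22 higher and 16 lower in co-culture.

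**Figure D2:**
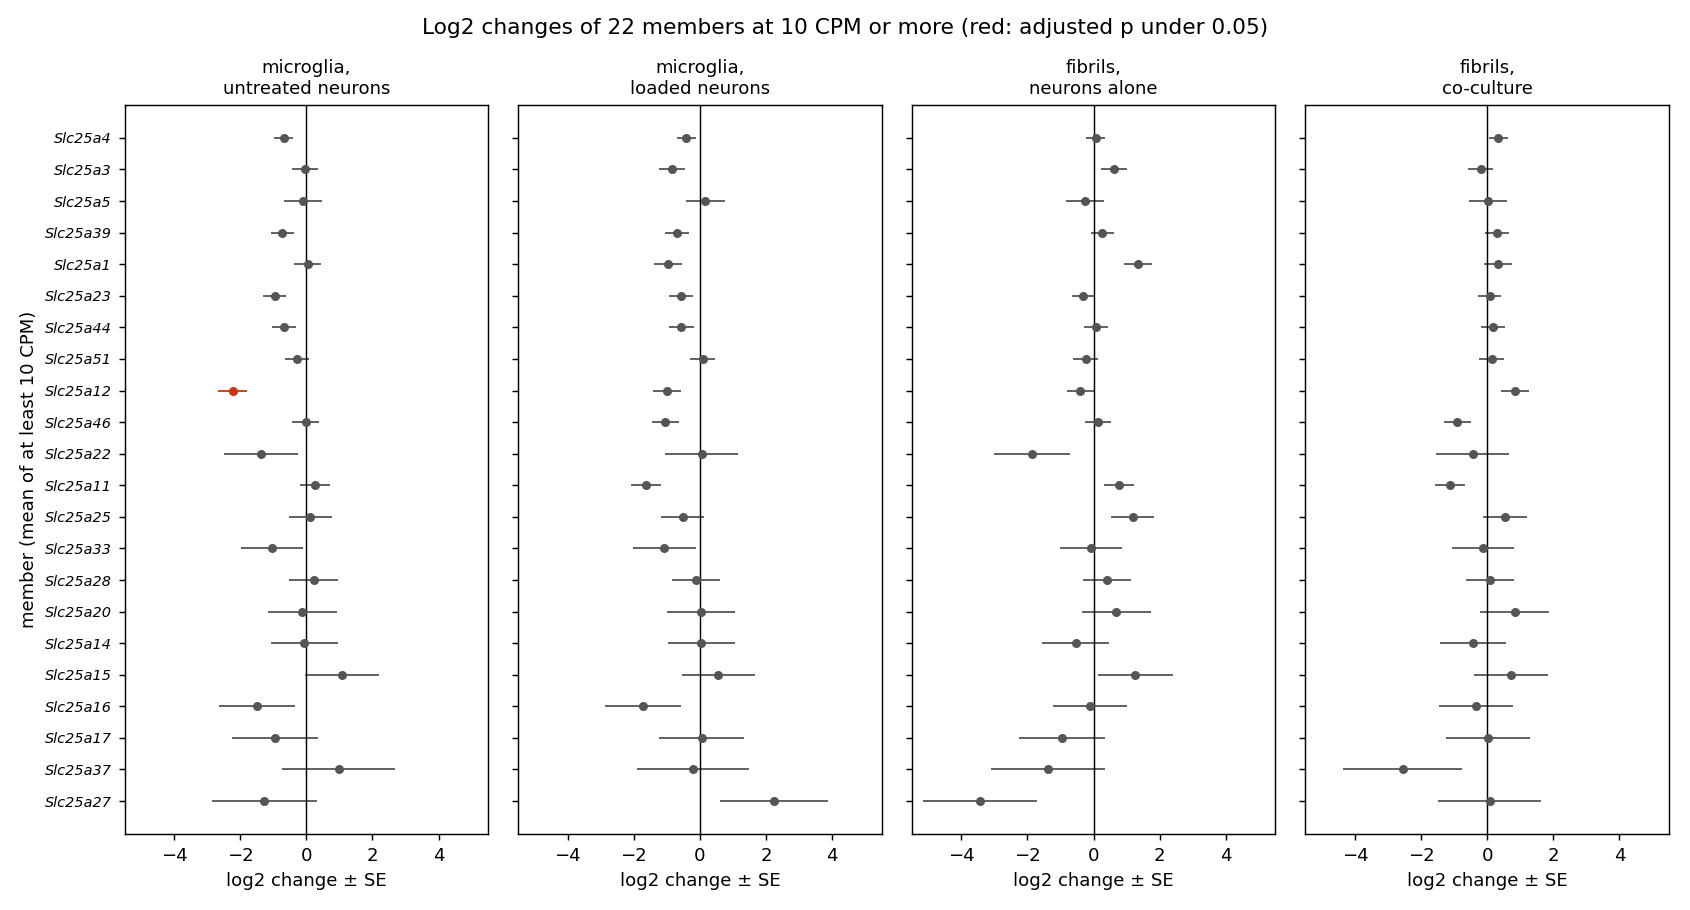
Points are edgeR log2 changes with their standard errors for 22 members at 10 CPM or more, ordered by mean level, in the 4 comparisons named above the panels. Slc25a12 in untreated neurons, at -2.23, is the 1 red point, which marks an adjusted p under 0.05.

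Full separation of the groups was also counted, in TMM-scaled CPM, and can depend on that scaling. The CPM ranges of the 4 libraries with and the 4 without microglia did not overlap for 4 members in untreated neurons, Slc25a4, Slc25a12, Slc25a16 and Slc25a23, against 7.58% of genes. In loaded neurons this held for 3, Slc25a11, Slc25a12 and Slc25a46, against 6.32% of genes. Over both fibril states, the 8 co-cultures lay apart from the 8 libraries of neurons alone for 1 member, Slc25a12, against 0.601% of genes. With and without fibrils the ranges were apart for 1 member in neurons alone, Slc25a27 (4.18% of genes), and for 2 in co-culture, Slc25a11 and Slc25a39 (1.94% of genes).

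Among the aspartate/glutamate and glutamate carriers, Slc25a12 fell with microglia. In untreated neurons alone its level was 136, 115, 76.6 and 168 CPM in replicates 1 to 4, and in untreated co-cultures 10.9, 35.8, 37.3 and 21.7 CPM. In loaded neurons alone it was 83.0, 76.0, 104 and 112 CPM, and in loaded co-cultures 32.8, 39.6, 47.7 and 69.2 CPM. Every co-culture lay below every library of neurons alone in TMM-scaled CPM, and the nearest values were 69.2 and 76.0 CPM. By library totals these nearest libraries change order, so the ranges overlap. Replicate 4 of the loaded co-cultures had 604 of 7734948 counts, and replicate 2 of the loaded neurons alone 649 of 9685839. Counts behind these levels ran from 137 to 2292 per library, so counting error is small beside the spread between libraries. Group means were 124 ± 38.4, 93.8 ± 17.1, 26.4 ± 12.5 and 47.3 ± 15.8 CPM (SD, n = 4), in the order untreated alone, loaded alone, untreated co-culture and loaded co-culture.

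The log2 change of Slc25a12 with microglia was -2.23 ± 0.43 (SE) in untreated neurons, with an adjusted p of 0.0407, and -1.61 ± 0.30 in the average, with an adjusted p of 0.00574. In loaded neurons it was -0.99 ± 0.42, which did not pass (adjusted p = 0.37). The difference between both effects was 1.24 ± 0.59 on the log2 scale and did not pass either (adjusted p = 1). The call in untreated neurons rested on a narrow margin. It held without any 1 of 7 libraries and was lost without any 1 of the other 9, which were replicates 2, 3 and 4 of untreated neurons alone, replicates 1, 2 and 4 of the untreated co-cultures and replicates 2, 3 and 4 of the loaded co-cultures. Without these libraries the log2 change ran from -2.40 to -1.97 and the adjusted p from 0.0508 to 0.19. The averaged change passed under all 23 alternatives, at log2 changes of -1.73 to -1.40 and adjusted p of 1.02e-05 to 0.0192. Without replicate 1 of both co-culture groups, which had the highest summed microglial markers, the change in untreated neurons was -1.96 (adjusted p = 0.145) and the averaged change -1.40 (adjusted p = 0.0192).

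With microglia, both Slc25a12 and the summed neuronal markers had lower means. With fibrils in neurons alone both means were lower too, from 124 to 93.8 CPM for Slc25a12 and from 5416 to 3346 CPM for the markers. With fibrils in co-culture the mean of Slc25a12 was higher, 47.3 against 26.4 CPM, a change that did not pass edgeR's test. The mean of the markers was lower there, 1752 against 2025 CPM. Per 1000 CPM of the 10 neuronal markers, its level was 26.1 ± 15.3 in untreated neurons alone (13.3 to 48.0), 38.2 ± 18.5 in loaded neurons alone (16.2 to 56.4), 13.2 ± 4.62 in untreated co-cultures (7.45 to 18.8) and 26.8 ± 6.40 in loaded co-cultures (21.6 to 35.7; SD, n = 4). Set against the markers in this way, the ranges with and without microglia overlapped in both pairs. The log2 ratio differed by -0.89 in untreated neurons (two-sided exact permutation p = 0.171 over 70 splits) and by -0.38 in loaded neurons (exact permutation p = 0.4), where 0.0286 is the smallest p that these group sizes allow. The neuronal sum itself differed by -1.44 on the log2 scale in untreated neurons (exact permutation p = 0.0571) and by -0.64 in loaded neurons (exact permutation p = 0.343). The ratio rests on this 1 list of markers and was added after the data were seen. With 4 libraries a group, its p-values cannot show that the ratio was unchanged. With microglia, the mean sum of the excitatory markers went from 7197 to 1012 CPM without fibrils and from 3864 to 513 CPM with them. Both falls were steeper than those of the Slc25a12 means, from 124 to 26.4 and from 93.8 to 47.3 CPM. A ratio of Slc25a12 to the excitatory markers, taken from these means, is therefore higher with microglia in both fibril states. That is the opposite direction to the ratio to the 10 neuronal markers, and it was not tested. The markers' part in the change of Slc25a12 was not tested.

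**Figure D3:**
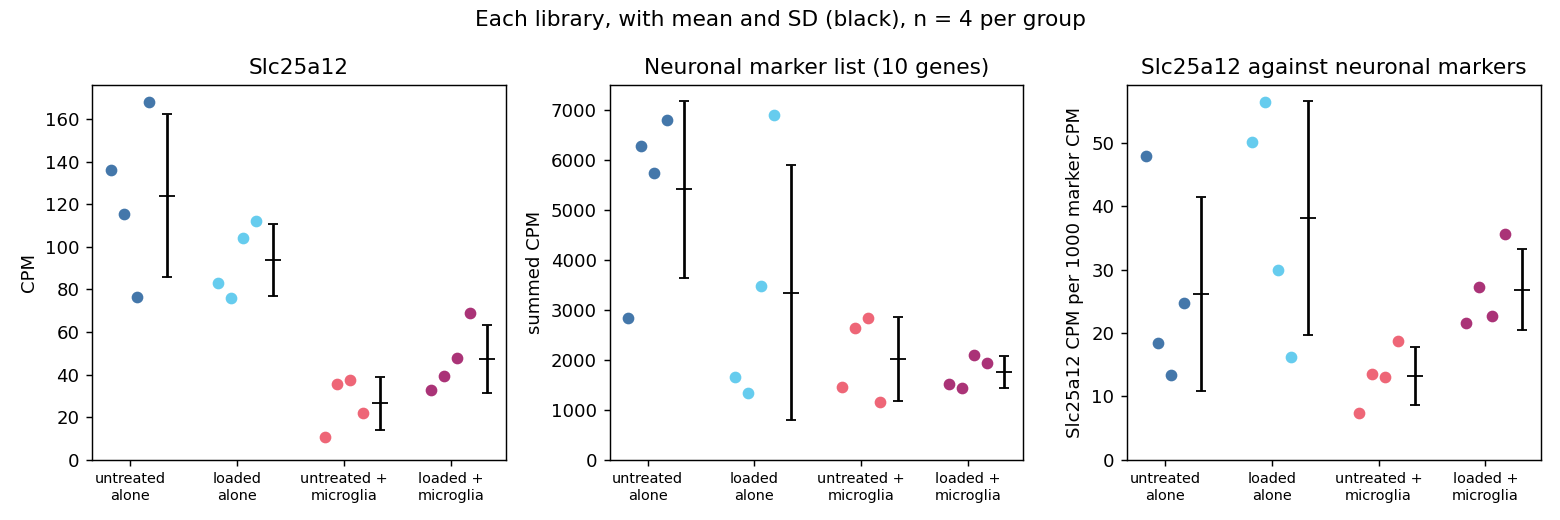
Points are single libraries in the 4 groups and black bars the mean and SD. The left panel shows Slc25a12 in CPM, the middle panel the summed CPM of the 10 neuronal markers and the right panel Slc25a12 per 1000 CPM of those markers. In TMM-scaled CPM the co-cultures lie below all libraries of neurons alone in the left panel, from 10.9 to 69.2 CPM. They overlap them in the other panels.

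The remaining carriers of this role varied widely between libraries. Slc25a13, or citrin, the second aspartate/glutamate carrier, was far lower than Slc25a12, with group means of 0.32 to 4.54 CPM, and its change with microglia did not pass. Slc25a22, a glutamate carrier, was at 38.5, 143, 112 and 101 CPM in untreated neurons alone and at 4.97, 6.79, 18.5 and 78.8 CPM in loaded neurons alone. In untreated co-cultures it was at 3.65, 62.0, 75.1 and 12.7 CPM, and in loaded co-cultures at 0.32, 20.4, 49.7 and 42.7 CPM. These ranges overlapped throughout, and its log2 change with fibrils in neurons alone, -1.86 ± 1.14, did not pass (adjusted p = 0.89).

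Of the adenine nucleotide and phosphate carriers, none of 3 passed a test in any of the 7 comparisons. Slc25a4, the adenine nucleotide carrier known from muscle, heart and brain, was at 1226, 1049, 929 and 916 CPM in untreated neurons alone and at 728, 732, 470 and 636 CPM in untreated co-cultures. It was at 778, 1603, 1051 and 884 CPM in loaded neurons alone and at 780, 1032, 538 and 893 CPM in loaded co-cultures. The untreated groups did not overlap, whereas the loaded groups did. The log2 change with microglia was -0.68 ± 0.29 in untreated neurons (adjusted p = 0.479) and -0.55 ± 0.20 in the average (adjusted p = 0.158).

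Slc25a5 (chromosome X, 36795651 to 36798807, plus strand, GRCm38) is the adenine nucleotide carrier of dividing and many other cells. It was at 490, 365, 151 and 333 CPM in untreated neurons alone and at 412, 438, 84.7 and 194 CPM in loaded neurons alone. The level was 162, 373, 442 and 263 CPM in untreated co-cultures and at 54.4, 320, 354 and 538 CPM in loaded co-cultures. All 4 groups overlapped, and its log2 changes in the 4 single comparisons ran from -0.25 to 0.17. The share of Slc25a4 in the sum of both genes was 76.2 ± 6.60%, 79.6 ± 11.2%, 67.6 ± 12.6% and 73.1 ± 15.3% (SD, n = 4), in the order untreated alone, loaded alone, untreated co-culture and loaded co-culture. The group ranges of this share were not tested. Reads shared between such close relatives and their pseudogenes may have been split in the counting, which was not given in the sources used here.

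Slc25a3 (chromosome 10, 91116574 to 91124059, minus strand, GRCm38) supplies mitochondria with phosphate. It was at 456, 513, 550 and 855 CPM in untreated neurons alone and at 1527, 823, 549 and 742 CPM in loaded neurons alone. It was at 320, 304, 872 and 824 CPM in untreated co-cultures and at 280, 433, 547 and 757 CPM in loaded co-cultures. Replicate 1 of the loaded neurons alone stood highest, and all 4 groups overlapped. The change in loaded neurons with microglia was -0.85 ± 0.40 (adjusted p = 0.405).

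The ATP-Mg/phosphate carriers adjust the adenine nucleotide content of mitochondria in response to calcium. Slc25a23 (chromosome 17, 57043711 to 57059863, minus strand, GRCm38) was at 140, 124, 116 and 214 CPM in untreated neurons alone and at 88.4, 98.0, 46.9 and 71.7 CPM in untreated co-cultures. It was at 134, 136, 62.6 and 144 CPM in loaded neurons alone and at 97.9, 68.4, 69.7 and 86.0 CPM in loaded co-cultures. The untreated groups were apart, and replicate 3 of the loaded neurons alone was the lowest of its group. Its log2 change with microglia was -0.96 ± 0.36 in untreated neurons (adjusted p = 0.415) and -0.76 ± 0.25 in the average. The averaged change missed the threshold with edgeR (adjusted p = 0.109) and passed it with DESeq2 (adjusted p = 0.0465). An exon of Gm17168 overlaps Slc25a23 on the opposite strand. Slc25a25 averaged 26.3, 59.9, 28.7 and 41.7 CPM in the 4 groups and Slc25a24 3.63 to 8.02 CPM, and neither passed a test.

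The di- and tricarboxylate carriers exchange citrate, malate and oxoglutarate. Slc25a11 (chromosome 11, 70644196 to 70647479, minus strand, GRCm38) is the oxoglutarate/malate carrier of the malate-aspartate shuttle. It was at 53.9, 30.5, 38.4 and 45.3 CPM in untreated neurons alone and at 86.2, 66.8, 87.9 and 46.3 CPM in loaded neurons alone. It was at 34.2, 41.5, 68.6 and 57.6 CPM in untreated co-cultures and at 18.5, 14.0, 26.8 and 33.5 CPM in loaded co-cultures. All loaded co-cultures lay below all libraries of the untreated co-cultures and of the loaded neurons alone. The log2 change with microglia in loaded neurons was -1.63 ± 0.46, which missed the threshold with edgeR (adjusted p = 0.172) and passed with DESeq2 (adjusted p = 0.00542). The interaction was -1.89 ± 0.64 on the log2 scale and did not pass (edgeR, adjusted p = 1). An exon of Rnf167 overlaps Slc25a11 on the opposite strand, and since the strand setting of the counting was not given in the sources used here, their reads cannot be told apart.

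Slc25a1 (chromosome 16, 17925223 to 17928219, minus strand, GRCm38) is the citrate carrier, which exports citrate for fatty acid synthesis. It was at 52.9, 103, 74.0 and 79.1 CPM in untreated neurons alone and at 140, 280, 307 and 55.7 CPM in loaded neurons alone. It was at 76.7, 85.3, 68.7 and 86.9 CPM in untreated co-cultures and at 56.8, 129, 120 and 93.1 CPM in loaded co-cultures. Of the loaded neurons alone, 3 libraries exceeded all untreated neurons alone and replicate 4 lay among them. The log2 change with fibrils in neurons alone was 1.34 ± 0.43, the smallest unadjusted p of any member in that comparison (0.00451), and it did not pass (adjusted p = 0.627). Slc25a10, the dicarboxylate carrier, averaged 5.74 to 10.4 CPM in the groups and passed no test.

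Of the 4 carriers of metals and glutathione, none passed. Slc25a39 (chromosome 11, 102402985 to 102407946, minus strand, GRCm38) imports glutathione. It was at 322, 134, 154 and 116 CPM in untreated neurons alone and at 218, 332, 214 and 108 CPM in loaded neurons alone. It was at 111, 123, 81.3 and 125 CPM in untreated co-cultures and at 156, 126, 130 and 126 CPM in loaded co-cultures. All loaded co-cultures lay just above all untreated ones, and neurons alone overlapped both and reached higher. Its averaged log2 change with microglia was -0.71 ± 0.26 (adjusted p = 0.15). Slc25a40, its close relative, averaged 0.33 to 3.41 CPM. The mitoferrins, importers of iron, averaged 22.9 to 30.3 CPM for Slc25a28 and 4.0 to 23.8 CPM for Slc25a37. In loaded neurons all 4 members were lower with microglia, by a median of -0.21, while in untreated neurons 2 were higher and 2 lower. In loaded neurons Slc25a28, Slc25a37 and Slc25a40 changed by less than their standard errors (-0.12 ± 0.73, -0.21 ± 1.70 and -0.21 ± 2.37). Their direction is therefore not settled.

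Slc25a46 sits in the outer membrane, where it takes part in mitochondrial fusion and fission. It was at 47.9, 60.9, 62.6 and 82.1 CPM in untreated neurons alone and at 53.6, 67.9, 90.8 and 64.3 CPM in loaded neurons alone. It was at 40.5, 54.1, 70.1 and 84.4 CPM in untreated co-cultures and at 23.5, 41.9, 29.0 and 39.0 CPM in loaded co-cultures. The loaded co-cultures lay below all loaded neurons alone and, save for 1 untreated co-culture at 40.5 CPM, below all other libraries. The log2 change with microglia in loaded neurons was -1.05 ± 0.40 (adjusted p = 0.327). An exon of B930094E09Rik lies on its opposite strand.

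**Figure D4:**
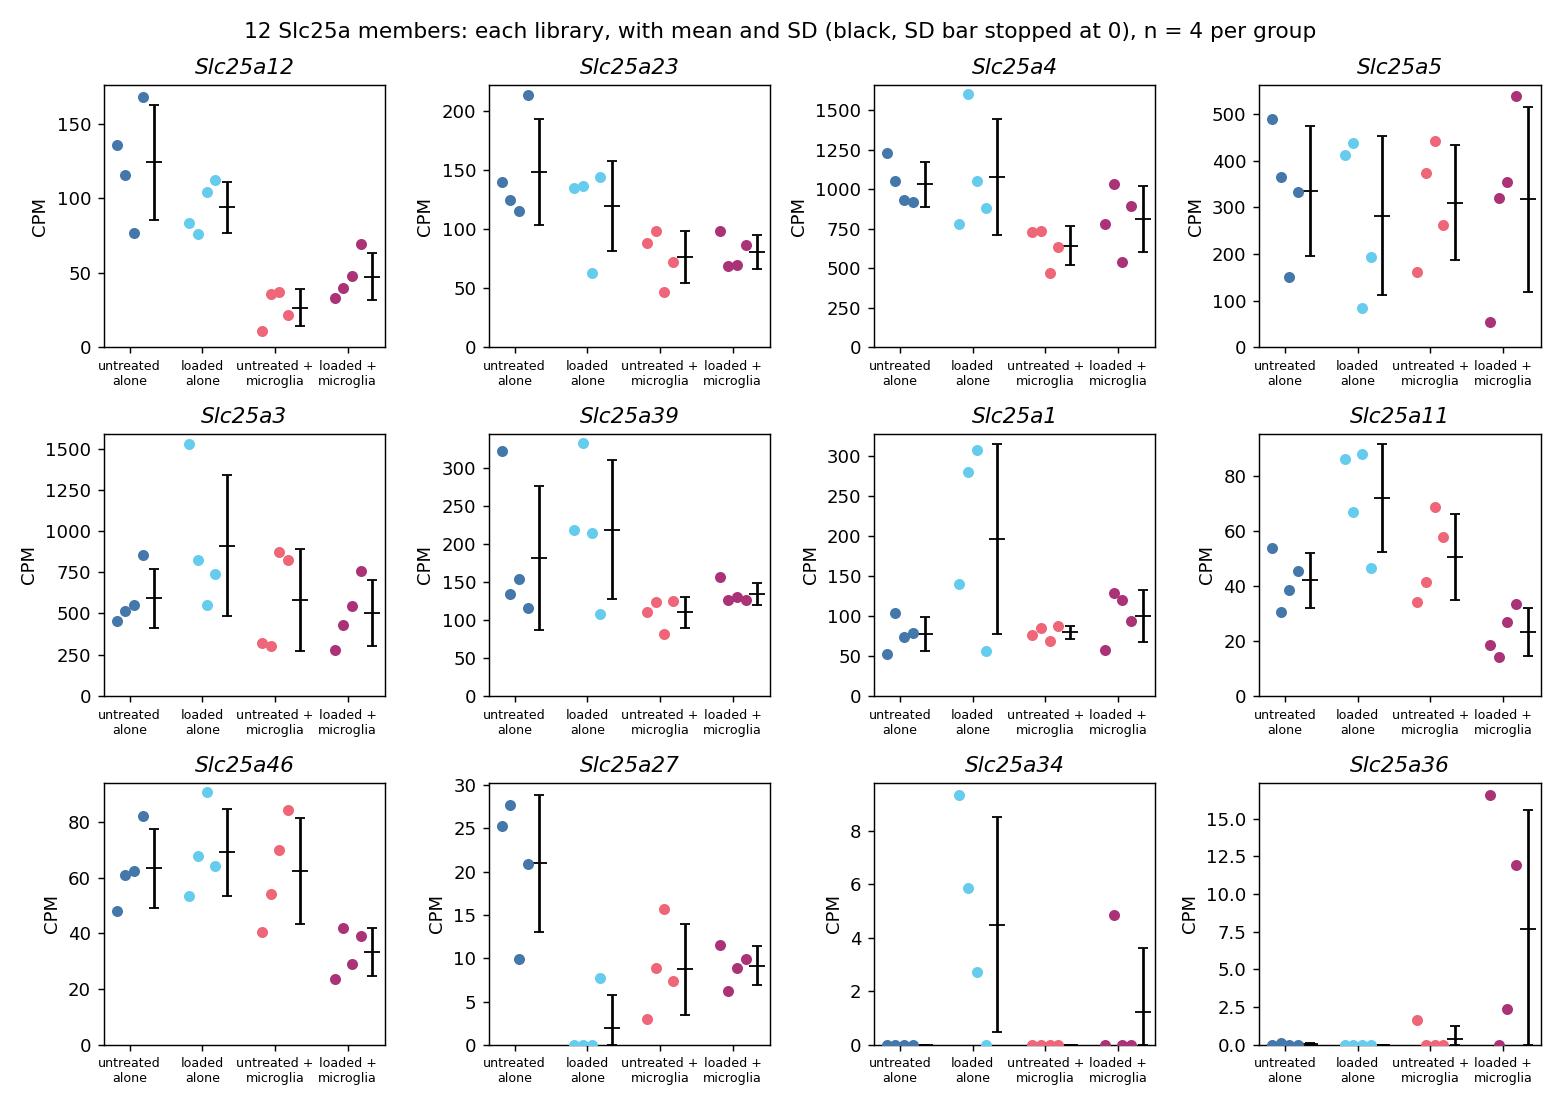
Each panel shows CPM of 1 of 12 members in the single libraries of the 4 groups, with mean and SD in black. In TMM-scaled CPM Slc25a12 separates into co-cultures below and neurons alone above, from 10.9 to 69.2 against 76.0 to 168 CPM. The groups of Slc25a5 and Slc25a3 overlap.

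The uncoupling-protein-like members, Slc25a14 and Slc25a27, are known from brain. Slc25a27 (chromosome 17, 43641891 to 43667214, minus strand, GRCm38) was at 25.3, 27.7, 9.90 and 20.9 CPM in untreated neurons alone and at 0, 0, 0 and 7.67 CPM in loaded neurons alone. In untreated co-cultures it was at 2.93, 8.88, 15.7 and 7.32 CPM, and in loaded co-cultures at 11.5, 6.26, 8.90 and 9.96 CPM. The loaded neurons alone lay below the untreated ones, and the loaded co-cultures did not share these zeros. The log2 change with fibrils in neurons alone was -3.43 ± 1.72 and did not pass (adjusted p = 0.745). Over the alternatives it ran from -10.6 to -3.02, with adjusted p of 0.0966 to 0.996. The value of -10.6 came without replicate 4 of the loaded neurons alone, when the other 3 libraries are all at 0, and is no bound. Slc25a14 averaged 15.6 to 22.7 CPM and passed no test.

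Both pyrimidine nucleotide carriers differed in how often they were seen. Slc25a36 (chromosome 9, 97074961 to 97111157, minus strand, GRCm38) had counts of 0, 1, 0 and 0 in untreated neurons alone, 0 in all loaded neurons alone, 21, 0, 0 and 0 in untreated co-cultures and 105, 0, 28 and 104 in loaded co-cultures. It met the rule for members through co-cultures alone, so a difference with microglia follows from the choice, and no fold or test is given. It is 1 of the members counted above at an unadjusted p under 0.05 with microglia in loaded neurons and in the average, which says nothing further. Slc25a33 averaged 40.6, 38.1, 19.8 and 18.1 CPM in untreated alone, loaded alone, untreated co-culture and loaded co-culture, with no call.

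Slc25a34 (chromosome 4, 141618824 to 141623821, minus strand, GRCm38), with no transport role stated here, had counts of 75, 50, 20 and 0 in loaded neurons alone and of 0, 54, 0 and 0 in loaded co-cultures. It was at 0 in all 8 untreated libraries. It met the rule for members through loaded libraries alone, so a difference with fibrils follows from the choice, and no fold or test is given here. A fold is printed only where the processing alternatives are listed, and it is no estimate. It is 1 of the members counted above at an unadjusted p under 0.05 in both fibril comparisons and their average, which says nothing further. Slc25a35 and Slc25a53 averaged 0.13 to 7.23 CPM and passed no test.

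The 7 cofactor carriers include Slc25a51, which imports NAD+, Slc25a26 for S-adenosylmethionine and Slc25a32 for folate. In untreated neurons all 7 were lower with microglia, with a median log2 change of -0.93 and 0 called by edgeR, DESeq2 or limma-voom (0 at an unadjusted p under 0.05). In loaded neurons 3 of the 7 were lower with microglia. With fibrils in neurons alone all 7 were lower too, with a median log2 change of -0.27 and 0 called by edgeR (0% of genes). That comparison and the one of microglia in untreated neurons share the group of untreated neurons alone. Slc25a51 was the most abundant, at 74.5 to 91.1 CPM in the group means. Slc25a16, linked to coenzyme A, was at 12.3 to 39.5 CPM over the 8 libraries of neurons alone and at 0 to 12.5 CPM over the 8 co-cultures, with an averaged log2 change of -1.60 ± 0.81 (adjusted p = 0.328).

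The 7 carriers of amino acids, carnitine and related compounds showed no common direction, with 4 higher and 3 lower with microglia in untreated neurons and 3 higher and 4 lower in loaded neurons. Slc25a44, a carrier of branched-chain amino acids, was the most abundant, with group means of 124, 130, 78.0 and 88.3 CPM in untreated alone, loaded alone, untreated co-culture and loaded co-culture. Its averaged log2 change with microglia was -0.61 ± 0.26 (adjusted p = 0.231). Slc25a20, the carnitine/acylcarnitine carrier, averaged 18.1 to 32.3 CPM, and Slc25a15, the ornithine carrier, 7.55 to 26.5 CPM. Slc25a29, Slc25a38, Slc25a45 and Slc25a47 averaged 0.98 to 12.9 CPM in the groups, and none of them passed.

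Other mitochondrial transport genes were set beside the members, 43 genes in 8 lists, of which 40 were tested. With microglia, 25 of the 40 were lower in untreated neurons, 34 in loaded neurons and 32 in the average. Of all genes, 50.8%, 51.2% and 51.4% were lower. Counts of direction depend on the scaling, as shown above for the members, and these rest on TMM factors alone. With edgeR 1 of the 40 was called, in the average, where 2.19% of all genes were called, so the share is near the background. It was Vdac1, the outer membrane channel for ATP and other metabolites. Vdac1 was at 580 to 686 CPM in untreated neurons alone, 404 to 739 CPM in loaded neurons alone, 285 to 407 CPM in untreated co-cultures and 167 to 348 CPM in loaded co-cultures, with an averaged log2 change of -1.01 ± 0.20 (adjusted p = 0.00939). Got1, Got2, Mdh1 and Mdh2 are the 4 enzymes of the malate-aspartate shuttle. Their log2 changes with microglia lay below 0 in both fibril states, with medians of -0.59 and -0.80. Mdh2 in untreated neurons hardly differed, at -0.07 ± 0.34 (SE). With edgeR 0 of the 4 were called. In the average 3 were at an unadjusted p under 0.05 with edgeR, as were 16.5% of all genes. These 4 genes were singled out after their values were seen. Genes that import carriers into mitochondria were divided, 5 of 13 lower in untreated and 11 of 13 lower in loaded neurons, with none called. With fibrils in neurons alone 29 of the 40 were higher and none was called, while 52.4% of all genes were lower.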

How the data were processed

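The data were gene counts from 16 QuantSeq forward libraries, a kit that reads RNA at its 3′ end, 4 in each of 4 groups taken from the labels. The table used holds raw counts for each gene symbol, deposited by the authors without normalization. The submitters' processing notes name STAR, Partek and DESeq2 and the build mm10, all without versions. How reads were counted, with which strand setting and with or without molecular identifiers, was not given in the sources used here. A second deposited table was not used, since 99.97% of its values differed by at most 0.6 from raw counts multiplied by 1 factor per library.

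Counts were fitted in R 4.3.3 with edgeR 4.0.16, after filterByExpr (minimum count 10, minimum total 15) and TMM scaling, in 1 robust quasi-likelihood model of all 16 libraries with group means. Calls were made at an adjusted p under 0.05 (Benjamini-Hochberg, over the 13139 genes tested) in each of 7 comparisons. CPM are counts per TMM-scaled library size. DESeq2 1.42.0 and limma 3.58.1 (voom) were alternatives, as were other scalings, no filter, a replicate block, fewer libraries and each library left out in turn. The script was tested on simulated data whose spread was set below that of these libraries. That test says nothing about power or false calls at the spread seen here.  A ratio of Slc25a12 to neuronal markers was compared by exact permutation and was added after the data were seen.

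The members, role groups, related lists and marker lists were chosen with earlier results of these data known. Values in every library were given for members called in any comparison, for the 3 of smallest p in each of the 4 single comparisons with fewer than 3 calls, and for the 5 of highest mean CPM; Slc25a22 was added after its values were seen, as were the malate-aspartate shuttle enzymes named among the related genes. Gene positions and exon overlaps came from GENCODE M21 (GRCm38, the build named mm10), in which all 38 members were found; exons of 10 members overlap a gene on the opposite strand and those of 2 a gene on the same strand. Upstream windows came from RefSeq (GRCm38.p6). Values of 1 member, counted among the 38, are not reported here.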

Additional observations from a re-analysis of the deposited data

Results flagged for a closer look

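In 45 groups of 4 libraries, 6 had 1 library far from its group, by a gap to the nearest library that took most of the group's range. Chance alone flags about 1 in 20 groups. That rate does not apply to the 4 of these groups with 3 zeros and 1 count, where the gap is the whole range by construction. Apart from these 4, the flagged groups are about as many as that rate gives. Slc25a23 was at 62.6 CPM in replicate 3 of the loaded neurons alone, against 134 to 144 CPM in the other libraries. Slc25a39 was at 156 CPM in replicate 1 of the loaded co-cultures, against 126 to 130 CPM. The others were low members seen in a single library of a group otherwise at 0. Slc25a27 reached 7.67 CPM in replicate 4 of the loaded neurons alone and Slc25a34 4.83 CPM in replicate 2 of the loaded co-cultures. Slc25a36 reached 0.116 CPM in replicate 2 of the untreated neurons alone and 1.67 CPM in replicate 1 of the untreated co-cultures.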

How the results depend on the processing

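Most counts of members called were 0 in comparisons with few calls over all genes and could hardly move, so their constancy says little, and those that moved are given here. Single log2 changes kept direction and side of the threshold in 457 of 472 alternatives, most of them as changes that did not pass. The call of Slc25a12 in untreated neurons was lost, leaving 0 members, without both microglia-rich co-cultures (adjusted p = 0.145), with only the libraries of the 2 groups compared (-2.20, adjusted p = 0.0947), and in 9 of 16 settings that left out 1 library, whose count ran from 0 to 1. DESeq2 called 1 member in loaded neurons with microglia and 2 in the average, where edgeR called 0 and 1. Leaving out 1 library at a time, the log2 change of Slc25a34 with fibrils in co-culture ran from 0 to 6.99, with 0 without replicate 2 of the loaded co-cultures, its only library with a count. The other causes were not tested. Slc25a34 and Slc25a36 had no value in settings whose filter removed them. Over all genes, edgeR called 16 with microglia in untreated neurons, 50 with library totals, 26 with no filter, 0 without both microglia-rich co-cultures and 1 with only the 2 groups; in loaded neurons 15, 31, 26, 17 and 0; in the average 288, 422, 289 and 152, and a fit of only 2 groups gives no average. limma-voom called 76, 41 and 652 and DESeq2 295, 492 and 1094. Leaving out 1 library gave 0 to 39, 1 to 27 and 158 to 333.

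Replicate numbers name runs of neighbouring library codes, and the labels do not say that they pair libraries. Deviations of same-numbered libraries correlated at -0.111 to 0.217 (median 0.043, 24 pairs). Those of other pairs correlated at -0.226 to 0.155 (median -0.013, 72 pairs). Each library has fewer partners of its own number than of other numbers, yet 9 of 16 correlated best with one of their own. Some pairing is thus possible, and the main fit did not use it. A replicate block kept the calls of Slc25a12, with 1 member called in untreated neurons and 1 in the average. Over all genes it gave 38, 42 and 366 calls, against 16, 15 and 288 without the block. Whether depth accounts for zeros among the members was not tested.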
